A study of Mus musculus with 2 samples.

Results

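Single-cell RNA counts of cultured vascular smooth muscle cells (VSMCs) were examined for 8 genes of the cell cycle entry control, out of 31053 genes counted. These were the CDK inhibitor genes *Cdkn1a*, *Cdkn1b*, *Cdkn2a*, *Cdkn2b* and *Cdkn2c* and the D cyclin genes *Ccnd1*, *Ccnd2* and *Ccnd3*, taken by name, and all 8 were found in the files and passed the filter on low counts. The cells were primary VSMCs from aortae of wildtype mice, with on average several aortae pooled per preparation, and were kept in full medium with serum for 5 days. No treatment or second genotype was compared, and 2 biological replicates were each sequenced as 1 library of the 10x single cell 3′ kit. All comparisons are therefore between classes of cells within these cultures, and each class was summed per library (n = 2 libraries).

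D cyclins bind the kinases CDK4 and CDK6, and the complex phosphorylates the retinoblastoma protein so that E2F factors can switch on genes for DNA replication. The INK4 proteins, encoded by *Cdkn2a* (p16), *Cdkn2b* (p15) and *Cdkn2c* (p18), bind CDK4 and CDK6 and keep D cyclins from activating them, whereas the CIP/KIP proteins p21 (*Cdkn1a*) and p27 (*Cdkn1b*) bind a wider range of cyclin-CDK complexes. VSMCs of the healthy vessel wall rarely divide, and in culture they re-enter the cell cycle while losing contractile proteins such as smooth muscle myosin heavy chain (*Myh11*).

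Cells were sorted into classes by unique molecular identifiers (UMIs), each of which stands for 1 captured mRNA molecule. A cell was called non-cycling with fewer than 3 UMIs of *Mki67*, *Top2a* and *Cenpf* together and cycling with 6 or more, and Myh11-high with 5 or more *Myh11* UMIs or Myh11-low with at most 1. Replicate 1 held 289 non-cycling Myh11-high, 2607 non-cycling Myh11-low, 162 cycling Myh11-high and 1200 cycling Myh11-low cells of 4866 kept cells. Replicate 2 held 517, 3971, 306 and 1230 cells of these classes, in the same order, of 6824 kept cells. Cells between the thresholds were in no class (608 and 800 cells). At the edge of the cycling threshold, 55 and 110 cells had 5 UMIs of the 3 genes and 53 and 80 cells had 6. The classes differed in depth: the median UMI count per cell was 19620 and 14401 in non-cycling Myh11-low cells and 32855.5 and 24640.5 in cycling Myh11-high cells, with the other classes in between. Levels are given as CPM, the UMIs of a gene per 1000000 UMIs summed over the class, and since 1 UMI is 1 molecule counted at its 3′ end, transcript length does not enter a comparison between genes.

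The labelled cell type was checked against its markers. The 8 contractile genes (*Acta2*, *Tagln*, *Cnn1*, *Myl9*, *Smtn*, *Lmod1*, *Myocd*, *Actg2*) were all detected in every class of both libraries, and their summed level was 20081 to 28832 CPM in Myh11-high and 3592 to 6742 CPM in Myh11-low cells. Endothelial genes were present at 2.18 to 59.9 CPM, macrophage genes at 3.08 to 13.9 CPM with *C1qa* at 0 in 5 of the 8 sums, and mesothelial genes at 2.71 to 8.50 CPM with *Msln* at 0 in 7 of them. Schwann cell genes summed to 3.98 to 33.5 CPM with *Sox10* at 0 in 5 sums, adventitial fibroblast genes to 15.8 to 60.5 CPM and genes of modulated smooth muscle cells to 2212 to 4988 CPM. The gate on cycling cells was checked with genes it did not use. All 12 S phase genes had higher fitted levels in cycling cells. Of them, 11 passed the test described below in Myh11-high cells (the exception was *Ung*, 1.44 on the log2 scale, adjusted p = 0.0845) and 12 in Myh11-low cells. All 9 G2/M genes passed in both. Of the non-cycling cells, 59.6% to 67.1% by class and library still held 2 or more S phase UMIs, and 22.4% to 31.7% held 2 or more G2/M UMIs. In cycling cells these shares were at least 98.4%. Non-cycling therefore means few UMIs of the 3 gate genes, and not that a cell was outside the cell cycle.

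The genes lie on chromosomes 4, 6, 7 and 17 of the mouse genome (GRCm38, GENCODE M21). *Cdkn1a* (ENSMUSG00000023067) is at chr17:29090976-29100727 and *Ccnd3* (ENSMUSG00000034165) at chr17:47505051-47599691, both on the plus strand. *Cdkn1b* (ENSMUSG00000003031) is at chr6:134920401-134925513 on the plus strand and *Ccnd2* (ENSMUSG00000000184) at chr6:127125162-127152193 on the minus strand. *Ccnd1* (ENSMUSG00000070348) is at chr7:144929931-144939925 and *Cdkn2c* (ENSMUSG00000028551) at chr4:109660876-109667189, both on the minus strand. *Cdkn2a* (ENSMUSG00000044303) at chr4:89274471-89294653 and *Cdkn2b* (ENSMUSG00000073802) at chr4:89306299-89311039 are neighbours on the minus strand with 11645 bases between them. *Cdkn2a* has 2 coding transcripts with starts at 89282192 and 89294653, known to encode p16INK4a and p19ARF, and they share their 3′ part, so the counts sum both products. *Ccnd1*, *Ccnd2* and *Ccnd3* each overlap a gene on the other strand. Those partners were lower than the cyclin in both libraries, at 12.3 and 13.7 CPM beside *Ccnd1*, at most 0.477 CPM beside *Ccnd2*, and 25.6 and 28.8 CPM for *Bysl* beside *Ccnd3*, and the strand setting of the counting is not given in the sources used here.

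The start regions of the *Cdkn2a* and *Cdkn2b* neighbours are shown because these 2 genes were found together in cells more often than depth gave, as described below, and because the counts cannot separate the *Cdkn2a* starts. Sequences are from RefSeq (GRCm38.p6), minus strand, 5′ to 3′, and stop before the first exon base. Capitals mark matches on either strand to the 5 motifs searched: TTTCCCGC and TTTGGCGC, as bound by E2F factors, GGGCGG, the GC box of Sp1, CCAAT, and TTTGAA, the core of the cell cycle homology region.
Cdkn2a upstream start, chr4:89294654-89294869: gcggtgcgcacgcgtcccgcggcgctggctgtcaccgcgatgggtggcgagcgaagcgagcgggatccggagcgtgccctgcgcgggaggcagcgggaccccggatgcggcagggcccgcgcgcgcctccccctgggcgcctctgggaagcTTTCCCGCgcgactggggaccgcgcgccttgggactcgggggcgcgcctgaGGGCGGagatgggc
Cdkn2a inner start, chr4:89282193-89282442: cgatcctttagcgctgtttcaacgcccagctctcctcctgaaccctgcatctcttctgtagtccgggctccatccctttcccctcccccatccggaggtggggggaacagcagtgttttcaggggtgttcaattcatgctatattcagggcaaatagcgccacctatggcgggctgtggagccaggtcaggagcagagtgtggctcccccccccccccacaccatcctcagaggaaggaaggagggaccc
Cdkn2b start, chr4:89311040-89311282: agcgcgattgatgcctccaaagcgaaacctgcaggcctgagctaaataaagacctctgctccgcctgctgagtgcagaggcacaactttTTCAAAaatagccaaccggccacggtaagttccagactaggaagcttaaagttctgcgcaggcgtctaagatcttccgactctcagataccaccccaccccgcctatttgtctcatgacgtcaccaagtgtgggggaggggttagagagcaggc
The upstream *Cdkn2a* window held 1 TTTCCCGC, a string present in 0.895% of 32851 windows of 250 bases before RefSeq starts, and 1 GGGCGG, present in 32.7% of them. The *Cdkn2b* window held 1 TTTGAA, read on the other strand and present in 16.0% of windows, and the inner *Cdkn2a* window held none of the 5 strings. TTTGGCGC was in 0.417% and CCAAT in 33.8% of windows. These are matches of letters, not mapped sites.

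Over all kept cells, *Ccnd2* had the highest level of the 8 genes, at 522.5 CPM in replicate 1 and 586.2 CPM in replicate 2. It was followed by *Cdkn1a* at 242.3 and 301.0 CPM, and neither gene overlapped any other member between libraries. *Ccnd3* (85.0 and 103.5 CPM), *Cdkn1b* (73.3 and 61.2 CPM) and *Ccnd1* (52.3 and 91.1 CPM) came next, and *Ccnd1* overlapped both of the others between libraries. *Cdkn2c* (36.0 and 38.6 CPM), *Cdkn2b* (23.1 and 38.5 CPM) and *Cdkn2a* (15.8 and 31.1 CPM) were lowest, and the spread between libraries did not separate *Cdkn2b* from either neighbour. The plot of levels by class shows every value.

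**Figure D1:**
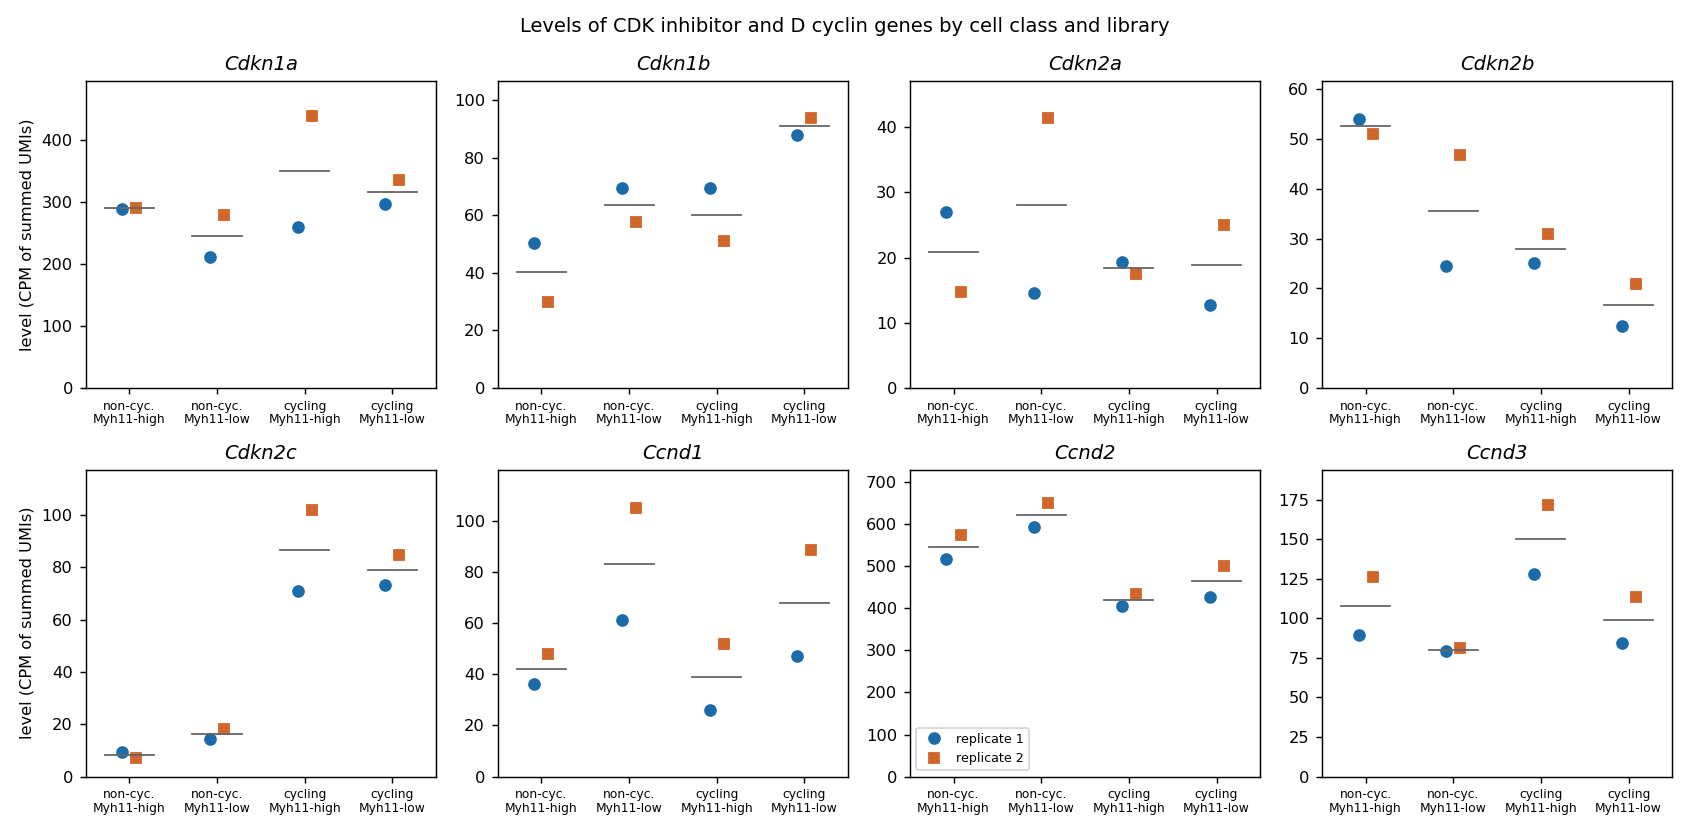
Level (CPM of summed UMIs, linear axis from 0) of each of the 8 genes in the 4 cell classes, with 1 point per library and a line at the mean of both libraries. Both cycling classes of *Cdkn2c* lie at 71.0 to 101.8 CPM, above both non-cycling classes at 6.95 to 18.3 CPM, and the 4 *Ccnd2* values of cycling cells lie below the 4 of non-cycling cells.

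Detection per cell did not follow level alone. *Ccnd3*, at a mean of 94.3 CPM over both libraries, had a UMI in a mean of 74.7% of kept cells. *Cdkn1a*, at a mean of 271.6 CPM, had one in 65.6%. A *Ccnd2* UMI was found in 96.9% (exact 95% interval 96.4 to 97.4) and 96.4% (96.0 to 96.9) of kept cells, a *Cdkn1a* UMI in 62.7% and 68.5%, and a *Cdkn2a* UMI in 23.5% (22.3 to 24.7) and 30.2% (29.1 to 31.3). Intervals cover counting error only. For comparison, the endothelial gene *Pecam1*, which smooth muscle cells should lack, had a UMI in 0.926% and 0.852% of the cells without other endothelial UMIs, at median depths of 22220 and 16345 UMIs. The share of cells with a UMI that free RNA alone would give, at an estimated 5.53% and 5.36% of the UMIs, was below the observed share for every member in every class. This estimate is rough. In cells with 10 or more endothelial UMIs (99 and 135 cells, a threshold chosen after the values were seen, median depths of 14416 and 10250 UMIs), *Cdkn2a* had a UMI in 2.02% and 3.70% of cells.

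The question of the first comparison was which of these genes differ between cycling and non-cycling cells of the same *Myh11* class. The Myh11-high classes were not matched in contractile level. Mean *Myh11* was 632.9 CPM in non-cycling and 457.1 CPM in cycling ones. Their 8 contractile genes summed to 26800 and 28832 CPM in non-cycling and 22190 and 20081 CPM in cycling cells. *Cdkn2c*, encoding p18INK4c, was the member that rose. In Myh11-high cells, its level was 9.48 CPM in replicate 1 and 6.95 CPM in replicate 2 in non-cycling cells, and 71.0 and 101.8 CPM in cycling cells. In Myh11-low cells, it was 14.5 and 18.3 CPM in non-cycling and 73.2 and 84.5 CPM in cycling cells. The groups did not overlap in either *Myh11* class. Here and below, overlap describes 2 values against 2. Its share over all genes was not counted, so it carries no test and adds nothing to the p-values. The difference was 9.88-fold in Myh11-high cells (log2 fold change 3.30, SE 0.25, adjusted p = 0.000757, quasi-likelihood test of edgeR, Benjamini-Hochberg adjusted) and 4.76-fold in Myh11-low cells (log2 fold change 2.25, SE 0.23, adjusted p = 0.00209). A *Cdkn2c* UMI was present in 19.4% and 12.2% of non-cycling and 78.4% and 79.7% of cycling Myh11-high cells. After thinning every cell to 3000 UMIs, these shares were 2.78% and 2.19% against 18.1% and 25.3%. *Cdkn2c* was thus 1 of 8 members called in each *Myh11* class, where 5.46% of 13387 genes tested were called in Myh11-high and 6.08% in Myh11-low cells.

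*Cdkn2b*, encoding p15INK4b, was lower in cycling cells. It was at 54.0 and 51.1 CPM in non-cycling and 25.0 and 30.9 CPM in cycling Myh11-high cells. In Myh11-low cells it was at 24.5 and 46.7 CPM in non-cycling and 12.5 and 20.97 CPM in cycling cells. Within each library the cycling cells were the lower ones, and the groups did not overlap in either *Myh11* class. The log2 fold change was -1.01 (SE 0.35, adjusted p = 0.209) in Myh11-high and -1.10 (SE 0.35, adjusted p = 0.160) in Myh11-low cells, which did not pass. With the library as a block, which compares sums of the same culture with each other, *Cdkn2b* passed in both, at -1.03 (SE 0.24, adjusted p = 0.0317) and -1.09 (SE 0.21, adjusted p = 0.0139). In that fit, 17.4% and 22.5% of genes passed, so that 3 of 8 members (*Cdkn2b*, *Cdkn2c* and *Ccnd2*) stood against a larger background in each *Myh11* class.

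*Cdkn2a* did not separate the classes. Its level was 27.1 and 14.8 CPM in non-cycling and 19.4 and 17.4 CPM in cycling Myh11-high cells. In Myh11-low cells it was 14.6 and 41.4 CPM in non-cycling and 12.8 and 25.0 CPM in cycling cells, and the groups overlap in both *Myh11* classes. The log2 fold change was -0.28 (SE 0.58, adjusted p = 0.884) and -0.58 (SE 0.55, adjusted p = 0.733), with the largest standard errors of the 8 genes in these comparisons.

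Of the CIP/KIP genes, neither passed in the fit with or without the library block. *Cdkn1a*, the p53 target that encodes p21, was at 288.1 and 290.5 CPM in non-cycling and 260.2 and 438.6 CPM in cycling Myh11-high cells, which overlap. In Myh11-low cells it was at 211.9 and 279.0 CPM in non-cycling and 296.7 and 335.3 CPM in cycling cells, which do not overlap. The log2 fold changes were 0.17 (SE 0.25, adjusted p = 0.825) and 0.35 (SE 0.25, adjusted p = 0.611). *Cdkn1a* was thus still found in cells with 6 or more cycling UMIs, with a UMI in 82.7% and 90.9% of cycling Myh11-high cells against 67.8% and 71.6% of non-cycling ones, and in 41.1% and 55.7% against 35.3% and 38.9% after thinning. *Cdkn1b*, encoding p27, was at 50.4 and 29.8 CPM in non-cycling and 69.4 and 51.0 CPM in cycling Myh11-high cells, which do not overlap. In Myh11-low cells it was at 69.3 and 57.7 CPM against 88.0 and 93.7 CPM. The log2 fold changes were 0.49 (SE 0.28, adjusted p = 0.465) and 0.50 (SE 0.27, adjusted p = 0.469), and with the library block 0.51 (SE 0.19, adjusted p = 0.120) and 0.52 (SE 0.17, adjusted p = 0.0689). Over all 17 fits with other settings included, *Cdkn1b* passed in 2 in each *Myh11* class.

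Of the D cyclins, *Ccnd2* made up a smaller part of the UMIs in cycling cells, by a small and even amount. Cycling cells held more UMIs each, and their median *Ccnd2* count per cell was not lower. It was 11 and 9 UMIs against 10 and 9 in non-cycling Myh11-high cells, and 10 and 8 against 9 and 7 in Myh11-low cells. The *Ccnd2* level was 518.5 and 574.9 CPM in non-cycling and 405.0 and 434.3 CPM in cycling Myh11-high cells. In Myh11-low cells it was at 592.4 and 651.0 CPM in non-cycling and 427.9 and 501.2 CPM in cycling cells. The groups did not overlap. The log2 fold change of -0.48 (SE 0.12, adjusted p = 0.0772) in Myh11-high and -0.44 (SE 0.12, adjusted p = 0.101) in Myh11-low cells missed the threshold, and with the library block it passed in both (-0.48, SE 0.05, adjusted p = 0.00171, and -0.44, SE 0.05, adjusted p = 0.00176).

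*Ccnd3* was at 89.7 and 126.0 CPM in non-cycling and 128.1 and 171.7 CPM in cycling Myh11-high cells, and at 79.4 and 81.1 CPM against 84.3 and 113.6 CPM in Myh11-low cells, without overlap in either. Its log2 fold changes of 0.37 (SE 0.23, adjusted p = 0.495) and 0.28 (SE 0.23, adjusted p = 0.666) did not pass, nor did they with the library block (adjusted p = 0.0924 and 0.173). *Ccnd1* was at 36.0 and 47.8 CPM against 26.1 and 51.7 CPM in Myh11-high cells, and at 61.2 and 105.1 CPM against 47.3 and 88.7 CPM in Myh11-low cells. These groups overlap, and the log2 fold changes were -0.20 (SE 0.45, adjusted p = 0.895) and -0.31 (SE 0.43, adjusted p = 0.854).

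**Figure D2:**
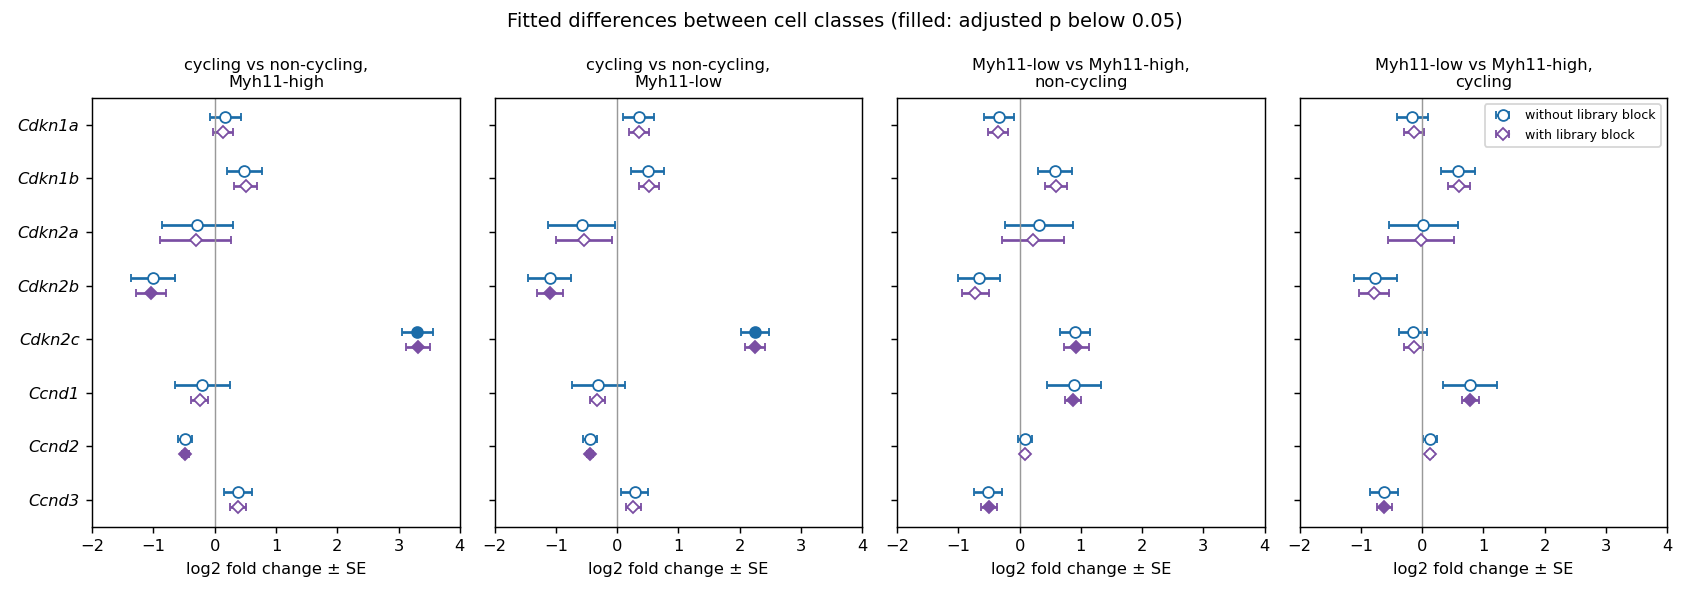
Log2 fold change ± SE of the 8 genes in 4 comparisons of cell classes, fitted without (circles) and with (diamonds) the library as a block, and filled where the adjusted p is below 0.05. *Cdkn2c* is filled in both fits for both cycling comparisons (3.30 and 2.25 without the block), and the filled diamonds beside open circles are calls made with the block only.

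The next comparison asked how the same genes differ between Myh11-low and Myh11-high cells of the same cycling state. No member passed in non-cycling cells, where 3.42% of genes did, or in cycling cells, where 1.73% did. At an unadjusted p under 0.05, 1 member (*Cdkn2c*) and 19.3% of all genes were called in non-cycling cells and 1 member (*Ccnd3*) and 15.4% of all genes in cycling cells. DESeq2 called 1 member (*Cdkn2c*) among 8.1% of genes in non-cycling and 0 members among 5.68% in cycling cells. With the library block, 24.9% of genes passed in non-cycling and 16.9% in cycling cells, and *Ccnd1* and *Ccnd3* passed in both with opposite signs.

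*Ccnd1* was higher in Myh11-low cells of each library, at the levels given above, although the groups overlap in cycling cells. Its log2 fold change was 0.88 (SE 0.44, adjusted p = 0.346) in non-cycling and 0.78 (SE 0.45, adjusted p = 0.477) in cycling cells, and with the block it was 0.86 (SE 0.13, adjusted p = 0.00555) and 0.79 (SE 0.14, adjusted p = 0.0124). Between the libraries *Ccnd1* itself differed, being higher in replicate 2 in all 4 classes. Endothelial RNA moved with this comparison: the 6 endothelial genes summed to 59.9 and 57.9 CPM in non-cycling Myh11-low and 15.7 and 4.15 CPM in non-cycling Myh11-high cells, *Pecam1* passed, and in cells with 10 or more endothelial UMIs *Ccnd1* was at 202.1 and 178.9 CPM. Without cells of the endothelial, macrophage, Schwann or mesothelial lists, the log2 fold change of *Ccnd1* was 0.80 in non-cycling and 0.70 in cycling cells, and 0.79 (adjusted p = 0.00522) and 0.71 (adjusted p = 0.0128) with the block. Adventitial fibroblast genes moved the same way, at a summed 45.0 and 60.5 CPM in non-cycling Myh11-low and 25.8 and 18.8 CPM in Myh11-high cells, and 31.9 and 55.1 CPM against 15.8 and 25.5 CPM in cycling cells. Cells with fibroblast genes were kept in all fits, and the part of these genes in the *Ccnd1* and *Ccnd3* differences was not tested.

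*Ccnd3* was lower in Myh11-low cells, with a log2 fold change of -0.52 (SE 0.23, adjusted p = 0.281) in non-cycling and -0.62 (SE 0.23, adjusted p = 0.271) in cycling cells, and -0.50 (SE 0.12, adjusted p = 0.0296) and -0.62 (SE 0.12, adjusted p = 0.0214) with the block. A *Ccnd3* UMI was found in 82.7% and 87.4% of non-cycling Myh11-high and 71.7% and 64.3% of non-cycling Myh11-low cells. *Cdkn2c* was higher in non-cycling Myh11-low than Myh11-high cells by 0.91 on the log2 scale (SE 0.24, adjusted p = 0.104), and passed with the block (0.92, SE 0.20, adjusted p = 0.0198). It was not separated in cycling cells (-0.15, SE 0.22, adjusted p = 0.819).

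The remaining 5 genes did not pass in either fit. *Cdkn1b* had log2 fold changes of 0.57 (SE 0.28) in non-cycling and 0.58 (SE 0.28) in cycling cells, and *Cdkn2b* of -0.67 (SE 0.34) and -0.76 (SE 0.35). With the block, the adjusted p was 0.0520 and 0.0612 for *Cdkn1b* and 0.0532 and 0.0735 for *Cdkn2b*. Over all 17 fits, *Cdkn1b* passed in 4 in each cycling state. *Ccnd2* differed least between non-cycling cells, at 0.09 (SE 0.12). *Cdkn2a* turned direction between libraries in non-cycling cells, with a difference of log2 CPM of -0.89 in replicate 1 and 1.49 in replicate 2.

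Whether the cycling effect itself differed between Myh11-low and Myh11-high cells was tested as an interaction. No gene passed in edgeR's quasi-likelihood test (0.0%). At an unadjusted p under 0.05 in that test, 125 genes or 0.934% were called, 1 member (*Cdkn2c*) among them. DESeq2 called 1 gene or 0.00478%, *Brip1*, which is not a member and was named after its value was seen. The largest value among the members was that of *Cdkn2c*, whose log2 fold change was lower in Myh11-low cells by 1.06 (a difference of -1.06, SE 0.33), and the other 7 lay between -0.30 and 0.18. With the library block, no gene passed either.

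Other genes of the pathway were counted from lists, without the block unless stated. Among the 16 CDK, cyclin E, retinoblastoma and E2F genes of the G1/S step, 6 rose in cycling Myh11-high and 7 in cycling Myh11-low cells, and none fell. The largest were *E2f8* (log2 fold change 3.99, SE 0.38, and 4.67, SE 0.34) and *E2f7* (3.56, SE 0.35, and 3.76, SE 0.31), repressors of E2F targets. *Rbl1*, encoding the retinoblastoma relative p107, rose by 3.11 (SE 0.28) and 2.70 (SE 0.24). The D cyclin partners *Cdk4* (0.55, SE 0.17, and 0.39, SE 0.17) and *Cdk6* (-0.06, SE 0.36, and -0.07, SE 0.34) did not pass. With the block, more genes of this list passed, all higher in cycling cells. Among them were *Cdk4* and *E2f2* in both *Myh11* classes and *E2f3* in Myh11-low cells. The list's median was 1.19 and 0.85, beside -0.06 and -0.04 over all genes tested.

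The fourth INK4 gene, *Cdkn2d* (p19INK4d), rose beside *Cdkn2c*. Its level was 14.0 and 15.4 CPM in non-cycling and 117.4 and 165.5 CPM in cycling Myh11-high cells, a log2 fold change of 3.17 (SE 0.24, adjusted p = 0.000761), and 2.78 (SE 0.23, adjusted p = 0.000883) in Myh11-low cells. *Cdkn1c* (p57) was at a mean of 2.87 to 6.46 CPM in the 4 classes and fell in cycling Myh11-low cells (-0.85, SE 0.18, adjusted p = 0.0431). Of the 5 genes of p27 turnover and transcription, *Skp2* and *Cks1b*, which take p27 to degradation, rose in both *Myh11* classes (*Skp2* 1.60, SE 0.24, and 1.67, SE 0.22), while *Foxo1*, *Foxo3* and *Foxo4* did not pass.

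None of the 14 genes of p53 and its targets passed in cycling against non-cycling cells, including *Mdm2* (0.04, SE 0.25, and 0.15, SE 0.25). With the block, 17.4% of all genes passed in Myh11-high and 22.5% in Myh11-low cells. In that fit 1 of the 14 rose (*Trp53*) and 3 fell (*Ccng1*, *Plk2*, *Btg2*) in Myh11-high cells. In Myh11-low cells 1 rose (*Trp53*) and 2 fell (*Plk2*, *Btg2*). These counts are not far from the shares over all genes. Of 9 regulators of the INK4/ARF locus, *Ezh2*, encoding the Polycomb methyltransferase, rose in both (2.39, SE 0.17, and 2.52, SE 0.17). Of 8 ERK targets, *Etv5* rose in Myh11-high cells (0.89, SE 0.18, adjusted p = 0.0421), and none passed in Myh11-low cells. With the block, *Etv5* also rose in Myh11-low cells (0.39, SE 0.11, adjusted p = 0.0452). In that fit *Dmtf1* of the INK4/ARF regulators fell in Myh11-high cells (-0.47, SE 0.09, adjusted p = 0.0162). None of 7 immediate early genes passed without the block. With it, 3 fell in cycling Myh11-high and 1 in cycling Myh11-low cells, beside the 17.4% and 22.5% of all genes that passed in that fit.

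Between Myh11-low and Myh11-high cells, none of these 7 pathway lists had a member past the threshold without the block. With it, where 24.9% and 16.9% of all genes passed, 4 of 7 immediate early genes were higher in Myh11-low non-cycling and 5 of 7 in cycling cells, and of the 14 p53 genes 3 were higher and 1 lower in non-cycling and 5 higher in cycling cells. Of the 16 G1/S genes, 2 were higher (*Cdk4*, *Rbl2*) and 1 lower (*Cdk6*) in non-cycling cells and 1 higher (*Cdk4*) in cycling cells. *Cdkn1c* was higher in non-cycling and *Cdkn2d* lower in cycling Myh11-low cells. Of the INK4/ARF regulators *Ezh2* was lower in non-cycling and *Dmtf1* higher in cycling cells, of the ERK targets *Etv5* was higher and *Myc* lower in non-cycling cells, and no gene of p27 turnover passed. Of the marker lists, 4 of 8 contractile genes fell in non-cycling Myh11-low cells (*Acta2*, *Tagln*, *Smtn*, *Myocd*), the modulated gene *Ly6a* rose among 5, and *Pecam1* rose among 6 endothelial genes. In cycling cells only *Myocd* fell without the block. With the block, all 8 contractile genes were lower in cycling Myh11-low cells, from -1.04 (*Smtn*) to -4.60 (*Myocd*) on the log2 scale. In that fit *S100a4* and *Ly6a* of the modulated list and *Pecam1* of the endothelial list were higher. No tested gene of the macrophage, Schwann, mesothelial and adventitial fibroblast lists passed in the 4 comparisons without the block. With it, *Pi16* and *Cd34* of the fibroblast list and *S100b* of the Schwann list were higher and *Krt19* of the mesothelial list lower in non-cycling Myh11-low cells, and *Pi16* was higher in cycling ones (2.41, SE 0.53, adjusted p = 0.0284).

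Cells were also laid out by their count of cycling-marker UMIs, with the cycling cells divided by whether S phase UMIs outnumbered G2/M UMIs. This division was chosen after the data had been seen and is a description. *Cdkn2c* in cells with 3 to 5 cycling UMIs was at 13.5 and 18.6 CPM in Myh11-high cells, against 9.48 and 6.95 CPM in non-cycling ones, and at 15.2 and 20.8 CPM in Myh11-low cells, against 14.5 and 18.3 CPM. It was at 45.4 and 60.4 CPM in S-leaning and 87.3 and 135.2 CPM in G2/M-leaning Myh11-high cells, and at 52.9 and 57.2 CPM and 84.8 and 99.998 CPM in Myh11-low cells. The median depth was 19719.5 to 29072 UMIs in the S-leaning and 19744.5 to 37350.5 UMIs in the G2/M-leaning cells. Its level was therefore higher in the G2/M-leaning cells in all 4 pairs of sums.

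*Cdkn1b* went the same way, from 46.3 and 34.5 CPM in S-leaning to 84.1 and 64.4 CPM in G2/M-leaning Myh11-high cells and from 72.8 and 68.2 to 96.6 and 108.2 CPM in Myh11-low cells. The S-leaning values of *Cdkn1b* were close to those of non-cycling cells. *Ccnd2* went the other way in all 4 pairs, from 436.7 and 478.4 to 384.9 and 398.8 CPM in Myh11-high and from 480.3 and 596.3 to 398.0 and 447.3 CPM in Myh11-low cells. *Ccnd1* and *Ccnd3* were also lower in the G2/M-leaning cells in all 4 pairs. For *Ccnd3* the highest level of each *Myh11* class and library was in S-leaning cells, at 104.8 to 172.8 CPM. *Cdkn1a* was lowest in cells with 3 to 5 cycling UMIs in all 4 combinations, at 89.9 and 268.0 CPM in Myh11-high cells (26 and 59 cells) and 159.3 and 190.1 CPM in Myh11-low cells (244 and 299 cells).

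**Figure D3:**
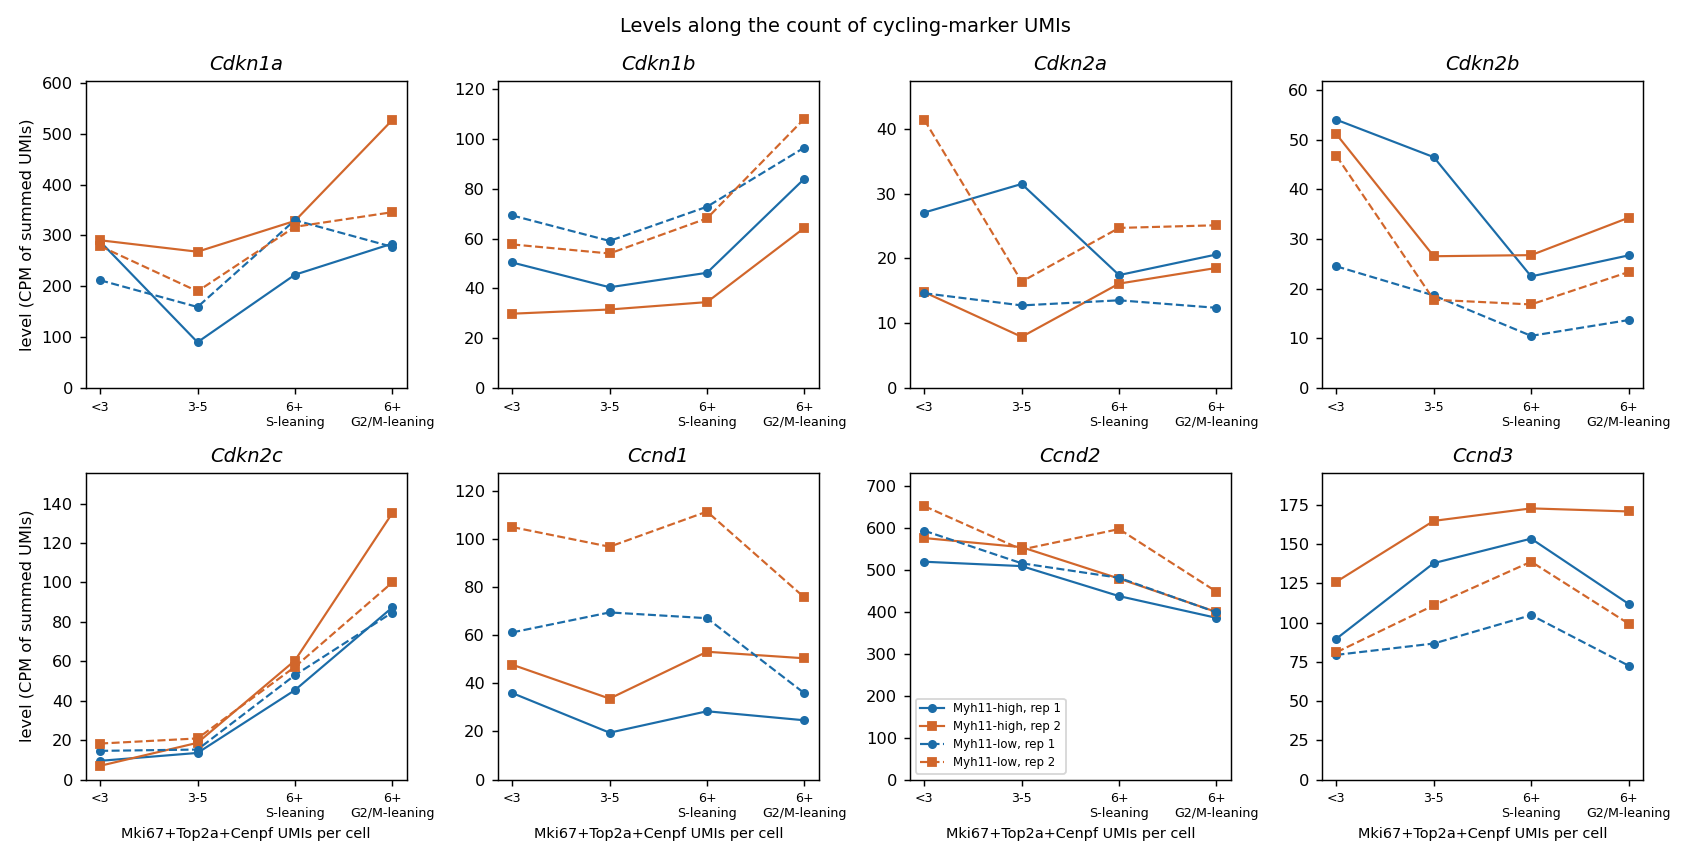
Level (CPM of summed UMIs, linear axis from 0) of each gene in cells with fewer than 3, 3 to 5, and 6 or more UMIs of the cycling markers, the last divided into S-leaning and G2/M-leaning cells, for Myh11-high (solid) and Myh11-low (dashed) cells of both libraries. *Cdkn2c* and *Cdkn1b* are highest in the G2/M-leaning cells, and *Ccnd3* peaks in the S-leaning cells.

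The make-up of each family can be read from the share of its UMIs. *Ccnd2* made up 80.5% (exact 95% interval 79.3 to 81.6) and 76.8% (75.8 to 77.7) of the D cyclin UMIs in non-cycling Myh11-high cells and 72.4% (70.8 to 74.0) and 66.0% (64.7 to 67.3) in cycling ones. These intervals treat UMIs as independent draws and leave out the spread between cells and between libraries. *Ccnd3* made up 13.9% and 16.8% in non-cycling and 22.9% and 26.1% in cycling Myh11-high cells. In Myh11-low cells, *Ccnd2* was at 80.8% and 77.8% in non-cycling and 76.5% and 71.2% in cycling cells. As a part of all UMIs, the summed D cyclin level was lower in cycling cells of each library. It was 559.1 and 657.7 CPM against 644.3 and 748.8 CPM in Myh11-high cells. In Myh11-low cells it was 559.5 and 703.6 CPM against 733.0 and 837.1 CPM.

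*Cdkn1a* was the largest part of the inhibitor UMIs in every class, at 58.5% to 73.9%. *Cdkn2c* made up 1.77% to 4.34% of them in non-cycling and 15.1% to 16.0% in cycling cells, and the 4 cycling values lay within a narrow range although their summed levels ran from 445.1 to 639.7 CPM. The summed inhibitor level was higher in cycling cells in each library and *Myh11* class.

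**Figure D4:**
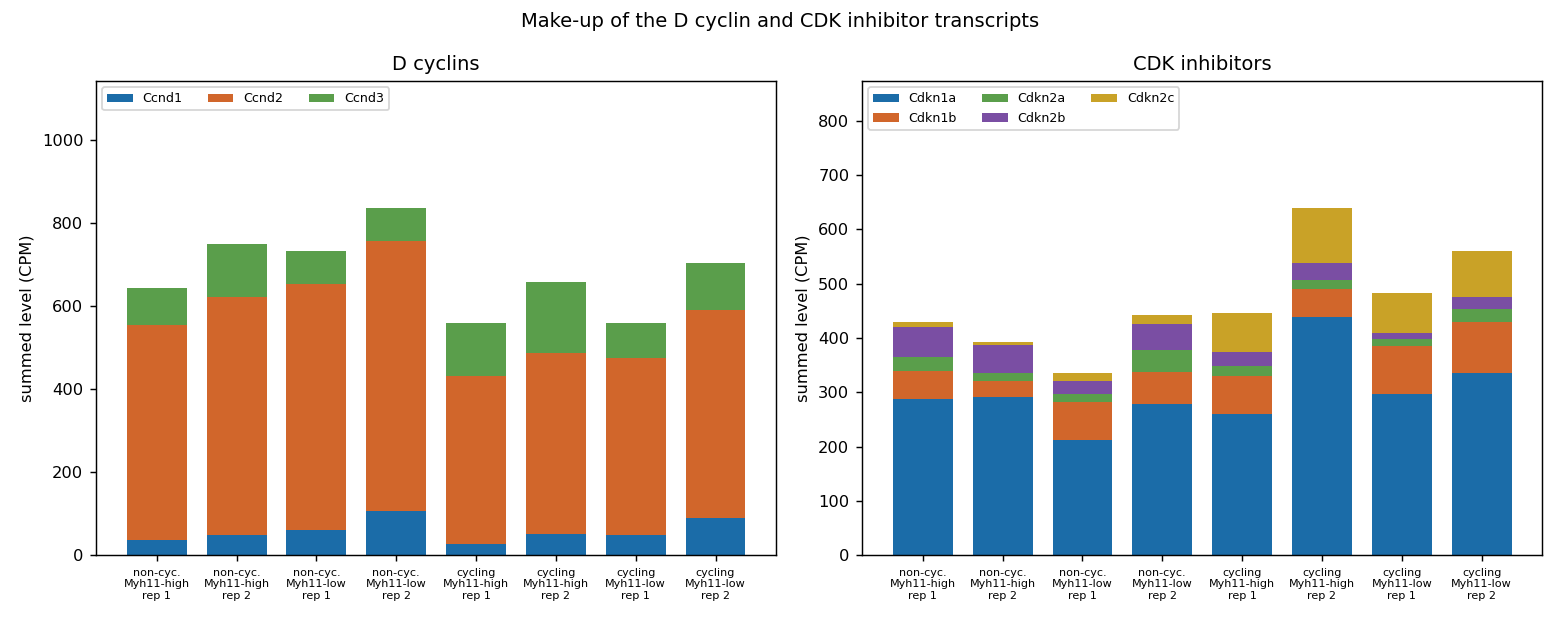
Summed level (CPM, stacked bars from 0) of the 3 D cyclin genes and of the 5 CDK inhibitor genes in each class and library. *Ccnd2* is the largest part of each D cyclin bar (66.0% to 80.8%) and *Cdkn1a* of each inhibitor bar (58.5% to 73.9%), and the *Cdkn2c* part is thicker in the 4 cycling bars.

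The genes differed in how evenly cells shared the UMIs. *Cdkn1a* reached a maximum of 119 UMIs in 1 cell. Within each class and library, cells were ranked by the part of their own UMIs that came from a gene. The top 10% of cells in this ranking held 42.7% to 51.1% of the *Cdkn1a* UMIs in non-cycling and 33.3% to 39.5% in cycling cells. For *Ccnd2* this share was 21.5% to 28.8% and for *Ccnd3* 18.5% to 25.0%, whereas for *Ccnd1* it was 44.2% to 61.6% and for *Cdkn2a* 44.9% to 69.3%. Genes at low levels have a high share by counting alone.

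*Cdkn2a* and *Cdkn2b*, the neighbours on chromosome 4, were found together in 236 non-cycling Myh11-low cells of replicate 1 (9.05%) and 685 of replicate 2 (17.3%). Independent detection within 10 classes of depth would give 6.09% and 12.5%, so that the ratio was 1.49 and 1.38. In the other classes it was 1.056 to 1.324. For the pairs of *Cdkn2b* with *Cdkn2c* the ratio was 0.83 to 1.01 over the 8 sums, and for *Cdkn1a* with *Cdkn2b* 0.95 to 1.07. These ratios are over cells of 1 culture each and carry no test.

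The genes most like each member were found by Pearson's r of log2 levels over 18 sums (9 steps of cycling and *Myh11* UMIs in 2 libraries), among 7850 genes. The sums share libraries and the cycling gradient, so r is a description. *Cdkn2c* was most like *Ckap5* (0.970), *Gas2l3* (0.969) and *Wbp11* (0.968). *Cdkn1b* was most like *Nin* (0.953), *Ccnd3* like *Lrrc8c* (0.942) and *Ccnd1* like *Zmat3* (0.925) and *Npr2* (0.912). *Cdkn1a* was most like *Stx12* (0.877), *Ccnd2* like *2310039H08Rik* (0.872), *Cdkn2b* like *Ube2w* (0.853) and *Cdkn2a* like *Grk5* (0.758). Among the members, *Cdkn2a* with *Cdkn2b* (0.64) and *Cdkn2c* with *Cdkn1b* (0.65) had the highest r and *Cdkn2c* with *Ccnd2* (-0.68) the lowest. All sums had equal weight in r, whatever their number of cells. The replicate 1 sum with 3 to 5 cycling and 2 to 4 *Myh11* UMIs had 11 cells. It held the highest level of both *Cdkn2a* (57.6 CPM) and *Cdkn2b* (82.7 CPM).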

How the data were processed

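Libraries were prepared from primary VSMCs with the 10x single cell 3′ kit (v3), 1 per biological replicate. The submitters' processing notes name Cell Ranger 3.0.2 and mm10, and the file header of replicate 2 names Cell Ranger 3.1.0. The deposited values are UMI counts per gene and barcode, which the authors made without normalization or selection of cells. The total was 127949633 and 132561822 UMIs. Cells were selected as in the study (300 genes or more, 3000 UMIs or more, mitochondrial share below 20%), which left 4866 and 6824 cells with a median of 22234.5 and 16310 UMIs. Doublets were kept, and 9 kept barcodes occurred in both libraries. Free RNA was estimated from barcodes with at most 100 UMIs and *Pecam1*.

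Counts were summed per class and library (8 sums) and tested in R 4.3.3 by the quasi-likelihood approach of edgeR 4.0.16 (TMM factors, filterByExpr, Benjamini-Hochberg over 13387 genes, threshold 0.05), on all 8 sums with the class as the only term. The SE was obtained by dividing the log2 fold change by the root of its F statistic. The scripts were tested on simulated sums with a set spread and known changes. Of 2-fold changes with cycling, the fit without the block recovered 18.2% in Myh11-high and 25.8% in Myh11-low cells. With the block these were 72.7% and 92.4%, and 11 and 14 unchanged genes were called, against 0 without it. A gene that did not pass without the block can therefore still differ by such an amount. DESeq2 1.42.0 was an alternative. Sums of 1 library come from 1 culture, so the replicate numbers pair them: deviations of same-numbered sums from the class means correlated across genes at 0.543 to 0.816. The fit with this replicate block is given where it changes the call of a member, and for the genes of the lists in part. No p-value was made from cells. Without the block, p-values measure the spread between the 2 libraries within classes, pooled over the 4 classes. They do not measure the spread of a single comparison between the libraries. That fit treats the sums of 1 culture as independent, although they correlate. With the block, p-values measure the spread that is left once the difference between the libraries is taken out, also pooled over the classes. Shares have exact (Clopper-Pearson) 95% intervals, and thinned shares are expected values at 3000 UMIs per cell. Of 31053 gene identifiers, 30934 matched GENCODE M21, and 6 of the 8 genes had RefSeq promoter entries. All 8 genes are named, and from the pathway lists up to 4 of the largest changes and genes of short lists. *Cdk4*, *Cdk6*, *Mdm2* and *Ung* in Myh11-high cells did not pass without the block and were named after their values were seen. The genes, lists and alternatives were chosen with earlier results of these data known.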

Additional observations from a re-analysis of the deposited data

How the results depend on the processing

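The rise of *Cdkn2c* in cycling cells passed in 17 of 17 fits in Myh11-high cells (log2 fold change 3.26 to 3.63) and in 17 of 17 in Myh11-low cells (2.20 to 2.34), and was 2.91 and 3.87 and 2.33 and 2.21 in each library alone. As a part of the UMIs, *Ccnd2* was lower in cycling cells in all fits and passed in 8 of 17 and 6 of 17. *Cdkn2b* was lower in all and passed in 5 of 17 and 6 of 17. *Cdkn1b* was higher in cycling and in Myh11-low cells in all fits and passed in 2 of 17 in each cycling comparison and 4 of 17 in each *Myh11* comparison. The replicate block moved the count of genes called from 731 to 2330 and from 814 to 3018 in the cycling comparisons in Myh11-high and Myh11-low cells, and from 458 to 3333 and from 231 to 2266 in the *Myh11* comparisons in non-cycling and cycling cells. In the same order, members called went from 1 to 3, 1 to 3, 0 to 3 and 0 to 2. The share of all 13387 genes was 5.46%, 6.08%, 3.42% and 1.73% without and 17.4%, 22.5%, 24.9% and 16.9% with the block. For the settings below only counts are given. The number of genes tested differed between settings, being 14429 and 14023 for DESeq2 in the *Myh11* comparisons. Member counts there carry no result about the members as a group. Further alternatives with the block were added after the data had been seen. With the block and thresholds scaled to 20000 UMIs per cell, 2533, 3286, 3921 and 3107 genes and 3, 5, 5 and 4 members passed. With the block and cells of 10000 to 30000 UMIs, 1569, 2119, 2556 and 1883 genes and 3, 3, 2 and 2 members passed. With the block and without cells of other types, these were 2251, 3020, 3457 and 2411 genes and 3, 3, 4 and 3 members. With the block and non-cycling cells low in S phase genes, they were 2557, 3609, 3044 and 2357 genes and 4, 4, 5 and 3 members. Without the block, DESeq2 called 2, 3, 1 and 0 members among 989, 1108, 1169 and 796 genes and 1 gene in the interaction. Scaled thresholds called 2, 1, 0 and 0 members among 816, 847, 785 and 606 genes, and stricter thresholds 3, 1, 2 and 2 members among 854, 988, 1226 and 752 genes. Leaving out the count filter gave 695 and 391 genes in the *Myh11* comparisons. The other settings kept each count within 1.5 times.

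Directions turned for values that did not pass in any fit. For *Cdkn1a* in cycling against non-cycling Myh11-high cells, the log2 fold change was -0.0065 with stricter thresholds, -0.18 with non-cycling cells low in S phase genes and -0.21 with that and the block, and for *Ccnd1* it was 0.076 and 0.050 in the latter pair. For *Cdkn2a* between Myh11-low and Myh11-high cycling cells it was -0.024 with DESeq2, -0.028 with RLE factors, -0.020 with the block, -0.0085 without the deepest 5% of cells and -0.013 with the block and non-cycling cells low in S phase genes. The interaction turned for *Cdkn1a* in cells of 10000 to 30000 UMIs (-0.20, and -0.11 with the block). It turned for *Cdkn1b* with DESeq2 (-0.030), RLE factors (-0.032), no scaling (-0.072), stricter thresholds (-0.20), and non-cycling cells low in S phase genes (-0.093, and -0.075 with the block). It turned for *Cdkn2a* in the depth window with the block (0.075), and for *Cdkn2b* with stricter thresholds (0.24) and low S phase genes (0.030, and 0.072 with the block). It turned for *Ccnd2* with no scaling (-0.039) and low S phase genes (-0.0066, and -0.014 with the block). The cause was not tested. With 2 libraries, the spread of *Cdkn2a* and *Ccnd1* between cultures limits what the fit without the block can call, and depth limits the shares of *Cdkn2a* and *Cdkn2c*. Values without a test had the sign of the fit in 39 of 40 cases with each cell scaled to the same total, 35 of 40 in replicate 2 alone and 30 of 40 in replicate 1 alone.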
